A study of Peromyscus maniculatus with 16 samples.

Results

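Ugt2a3 and the other UDP-glucuronosyltransferases (UGTs) of the Ugt1, Ugt2 and Ugt3 families were examined in the livers of 16 deer mice. The count table held 16910 genes by symbol, and 3 of them belonged to these families: Ugt2a3, Ugt1a1 and Ugt2a2. All 3 were among the 12639 genes tested, which had at least 0.5 CPM (the count relative to the library's total, scaled by edgeR's TMM method) in at least 1 animal. Ugt2a3 was chosen from its level in steatotic and non-steatotic livers on HFD. Its levels and fold changes between the diet groups are therefore a description and carry no p-value, while Ugt1a1 and Ugt2a2 were taken by symbol and were tested.

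The control group (C) held 6 males on regular diet, of which 5 were BW (P. maniculatus bairdii) and 1, animal 10876, was SM2 (P. maniculatus sonoriensis). The other 10 animals received HFD, a high fat diet with sucrose, for 28 weeks and were grouped afterwards by whether their livers showed steatosis. The 5 animals without steatosis (NS) were 4 BW males and the SM2 male 10865. The 5 with steatosis (S) were the BW females 35955, 35982 and 35990, the BW male 36016 and the SM2 male 10880. All animals were 10 months old at termination and came from outbred stocks, so animals of a group are genetically different individuals. No female was in C or NS, so for the 3 females sex and steatosis cannot be told apart.

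UGTs sit in the membrane of the endoplasmic reticulum and join glucuronic acid, taken from UDP-glucuronic acid, to lipophilic molecules such as bilirubin, steroids, bile acids and drugs. The glucuronides are water soluble and leave the hepatocyte through ABC transporters into bile or blood. Ugt1a1 is the enzyme of bilirubin conjugation. Ugt2a3 acts in liver and intestine, with bile acids among its known substrates, and Ugt2a2 is known best from nasal epithelium. In mouse the Ugt1a enzymes share their later exons, and so do Ugt2a1 and Ugt2a2. The authors counted uniquely mapped reads, and neither the strand setting nor the conversion to symbols is given in the sources used here, so the counts of these overlapping genes, like those of near-identical copies, are uncertain.

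Total counts ranged from 4640733 in S animal 36016 to 11349971. The hepatocyte markers looked up (7 in the table) summed to 58020 to 83020 CPM in C, 60960 to 84450 CPM in NS and 45640 to 67330 CPM in S. Markers of intestinal epithelium, another site of UGT expression, summed to at most 1.79 CPM in any animal, with Sis at 0 in all 16, and kidney tubule markers to at most 6.66 CPM, with Slc34a1 and Umod at 0. The S animal 36016 stood apart by its Col1a1 level of 2058 CPM. In these whole-liver samples, fewer hepatocytes and less of a transcript per hepatocyte cannot be told apart.

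Ugt2a3 was abundant in control livers and scarce in every steatotic liver. In C it was 363.1 CPM in the SM2 animal 10876, the lowest of the group, with a median of 663.0 CPM, and the highest was 903.5 CPM in animal 35972. In NS it was 763.5 CPM in animal 35937, 706.7 CPM in 35930, 594.0 CPM in 35987, 319.3 CPM in 35963 and 101.6 CPM in the SM2 animal 10865. In S it was 82.4 CPM in the SM2 animal 10880, 38.1 CPM in the male 36016, and 37.1, 35.5 and 29.7 CPM in the females 35982, 35990 and 35955.

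All 5 S animals were below all 11 other animals, while C and NS overlapped. The deposited counts behind these values were 200 to 676 reads in S, 806 to 6016 in NS and 3690 to 6336 in C, so counting error is small beside the spread between animals. The lowest NS animal and the highest S animal, both SM2, were the closest pair across the S boundary, at 101.6 and 82.4 CPM.

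**Figure D1:**
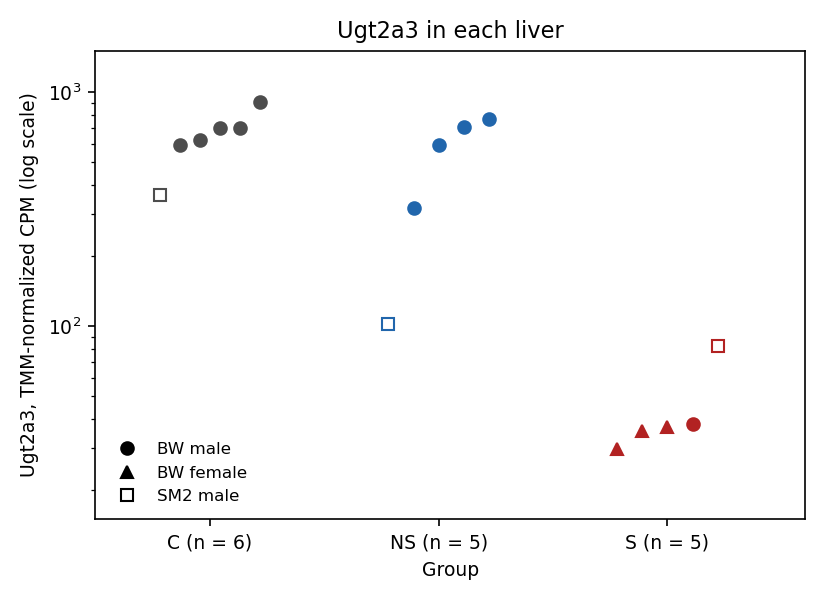
Ugt2a3 in each liver, as TMM-normalized CPM on a log scale, by group, with BW males as filled circles, BW females as triangles and SM2 males as open squares. The 5 S livers lie between 29.7 and 82.4 CPM, below the C livers (363.1 to 903.5 CPM) and the NS livers (101.6 to 763.5 CPM), and the SM2 animal is the lowest of C and NS but the highest of S.

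The group mean was 648.0 ± 176.5 CPM in C (SD, n = 6), 497.0 ± 279.4 CPM in NS (SD, n = 5) and 44.6 ± 21.4 CPM in S (SD, n = 5). The mean of C was 14.6 times that of S, the mean of NS was 11.2 times that of S, and the mean of C was 1.30 times that of NS. In the fit, the log2 fold change of Ugt2a3 was -3.86 (SE 0.45) in S vs C, -3.48 (SE 0.45) in S vs NS, -0.38 (SE 0.39) in NS vs C and -2.12 (SE 0.33) in HFD vs C, where HFD is the mean of S and NS. S vs NS and S vs C share the S animals, and NS vs C and S vs C share the controls. With males alone, the sex shared with C and NS, the log2 fold change was -3.42 against C and -3.04 against NS. The S side of these values is only animal 36016 and the SM2 animal 10880. With sex as a covariate the S value rests on the same S males, because no female was in C or NS. In BW animals alone it was -4.33 against C and -4.07 against NS. Among BW animals the 3 S females averaged 34.1 ± 3.86 CPM (SD, n = 3), beside 38.1 CPM in the S male, 595.9 ± 197.4 CPM in NS (SD, n = 4) and 705.0 ± 120.8 CPM in C (SD, n = 5). The summed hepatocyte markers had a median of 50330 CPM in S beside 65160 CPM in C and 71300 CPM in NS, and 1 of the 7, the haemoglobin-binding plasma protein Hp, was called lower in S vs C, at -1.36 (SE 0.29) with an edgeR adjusted p = 0.0241. In that comparison 5 of the 7, and 3010 of the 12639 genes tested, had an unadjusted edgeR p-value under 0.05. Another of the 7, Apoa1, the main protein of HDL, went the other way, with means of 7877 CPM in C, 19760 CPM in NS and 15360 CPM in S, and was called higher in HFD vs C, at 1.15 (SE 0.25) with an edgeR adjusted p = 0.0391. Their part in the Ugt2a3 result was not tested.

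Ugt1a1 was not called in any diet comparison, and its levels overlapped among the groups. In C it ranged from 1516 to 2058 CPM with a median of 1904 CPM. In NS it was 1512, 1559, 1595, 1725 and 2029 CPM, and in S it was 1083 CPM in the male 36016 and 1496, 1585, 1611 and 1742 CPM in the others. The 3 groups overlapped in each pairing, although the animal with the least Ugt1a1 was in S.

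The mean of Ugt1a1 was 1851 ± 189.2 CPM in C (SD, n = 6), 1684 ± 208.4 CPM in NS (SD, n = 5) and 1503 ± 251.0 CPM in S (SD, n = 5). The size of this difference depends on the scaling: with CPM by total count the means were 1719 in C, 1671 in NS and 1642 in S. In the fit, the log2 fold change of Ugt1a1 was -0.30 (SE 0.14) in S vs C, with an edgeR adjusted p = 0.207 and a confidence interval at the 0.95 level from -0.60 to -0.0024 before adjustment. It was -0.14 (SE 0.14) in NS vs C, with an edgeR adjusted p = 0.844. In S vs NS it was -0.16 (SE 0.15), with an interval from -0.47 to 0.15 and an edgeR adjusted p = 0.707. In HFD vs C it was -0.22 (SE 0.12), with an edgeR adjusted p = 0.348.

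Ugt2a2 was low in most livers and uneven among the controls. In C it was 79.1 CPM (804 reads) in the SM2 animal 10876, 23.9 CPM (153 reads) in 35998, 5.66 CPM in 36007, 2.85 CPM in 36001, 1.25 CPM in 35975 and 0.867 CPM in 35972. In NS it was 0.638 to 1.64 CPM, from 5 to 13 reads. In S it was 0.188 to 2.07 CPM, from 1 to 17 reads, with the single read in animal 36016.

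Of the 6 C animals, 4 lay above every animal on HFD, while the other two lay within the range of both HFD groups. The mean was 18.9 ± 30.7 CPM in C (SD, n = 6), an SD larger than the mean, against 1.02 ± 0.441 CPM in NS and 0.855 ± 0.715 CPM in S (SD, n = 5 each). Ugt2a2 was called lower in S vs C, with a log2 fold change of -4.40 (SE 1.05) and an edgeR adjusted p = 0.0358, and in HFD vs C, with -4.30 (SE 0.79) and an edgeR adjusted p = 0.0193. In NS vs C the log2 fold change was -4.20 (SE 1.03), with an edgeR adjusted p = 0.228. In S vs NS it was -0.20 (SE 1.13), with an edgeR adjusted p = 0.968.

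Without animal 10876 the log2 fold change of Ugt2a2 was -2.94 in S vs C, with an edgeR adjusted p = 0.0613, and -2.84 in HFD vs C, with an edgeR adjusted p = 0.0671. The S vs C call was lost with males alone (-3.94, edgeR adjusted p = 0.188) and with sex as a covariate, while NS vs C was called by DESeq2 (adjusted p = 0.00421) and by edgeR with stock as a covariate (-3.56, adjusted p = 0.0857).

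**Figure D2:**
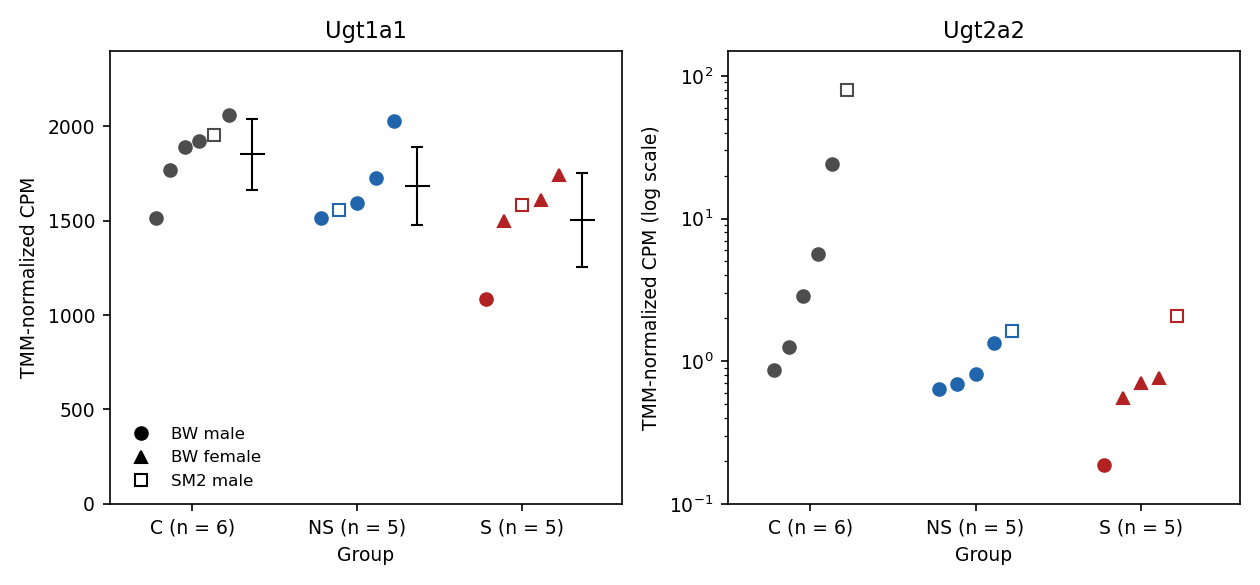
Ugt1a1 (left, linear scale from 0, with mean ± SD) and Ugt2a2 (right, log scale) in each liver, as TMM-normalized CPM by group, with BW males as filled circles, BW females as triangles and SM2 males as open squares. Ugt1a1 overlaps among the groups at 1083 to 2058 CPM, and Ugt2a2 lies between 0.188 and 2.07 CPM on HFD but reaches 79.1 CPM in C.

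To be called, a gene needed a fold change of 2 or more together with an adjusted p-value under 0.1. Of the 3 UGT genes, 2 (Ugt2a3 and Ugt2a2) were called in S vs C, both lower, beside 4.06% of all genes tested. In NS vs C 0 of 3 were called by edgeR, beside 0.0712% of all genes. DESeq2 called 1 of the 3, Ugt2a2, which was also the 1 of the 2 UGT genes other than Ugt2a3 with an unadjusted edgeR p-value under 0.05, and 1048 of the 12639 genes had an unadjusted edgeR p-value under 0.05. In S vs NS 1 of 3 was called, beside 0.00791% of all genes, which is 1 gene, Ugt2a3, and this is the comparison from which Ugt2a3 was chosen. In HFD vs C 2 of 3 were called, beside 0.894% of all genes. CPM did not overlap between S and C for 1 of the 3 genes, Ugt2a3, beside 4.19% of all genes, nor between S and NS for the same 1 of 3, beside 1.18%. NS and C overlapped for all 3, beside 0.989% of genes without overlap. Nothing is read from the counts that include Ugt2a3.

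**Figure D3:**
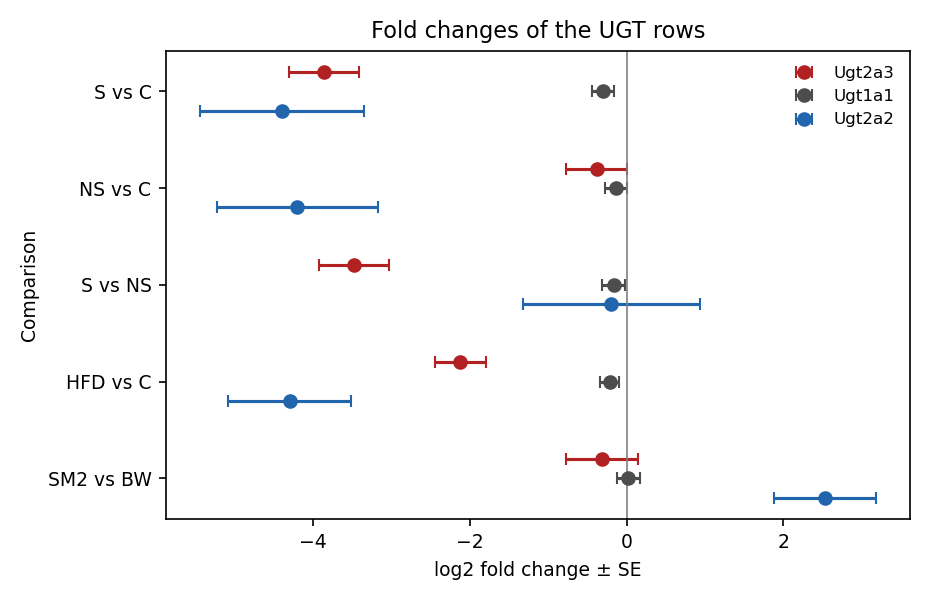
Log2 fold change ± SE of the 3 UGT genes in 5 comparisons over all 16 animals, from an edgeR fit by group and, for SM2 vs BW, a fit that added stock. Ugt2a3 lies at -3.86 in S vs C, at -3.48 in S vs NS and at -0.38 in NS vs C, Ugt1a1 stays between -0.30 and 0.02, and Ugt2a2 lies between -4.40 and -4.20 in the 3 comparisons with C.

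The relation of the 2 abundant UGTs within the same liver does not depend on the scaling of libraries. The Ugt2a3 count was 18.6 to 51.1% of the Ugt1a1 count in C, with a median of 35.3%. In NS it was 6.52% in the SM2 animal 10865, 20.0% in 35963, 34.4% in 35987, 34.8% in 35930 and 50.5% in 35937. In S it was 1.71% in 35955, 2.30% in 35982, 2.37% in 35990, 3.52% in 36016 and 5.20% in the SM2 animal 10880.

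Every S liver was again below every other liver, and the male 36016, whose Ugt1a1 was the lowest of all, also had a low share. The mean share was 35.5 ± 10.8% in C (SD, n = 6), 29.3 ± 16.7% in NS and 3.02 ± 1.38% in S (SD, n = 5 each). Transcript lengths were not at hand, so a share is comparable between animals but is not a ratio of molecules. The CPM of the 3 UGT genes summed to 2518 ± 216.6 in C, 2182 ± 411.4 in NS and 1549 ± 253.8 in S, mostly Ugt1a1.

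**Figure D4:**
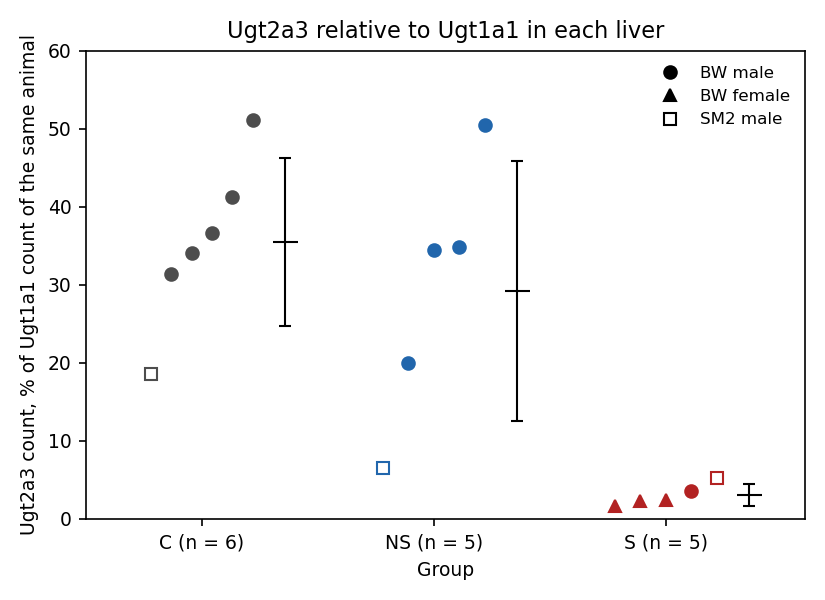
Ugt2a3 count as a percentage of the Ugt1a1 count of the same liver, by group, with mean ± SD beside the animals, BW males as filled circles, BW females as triangles and SM2 males as open squares. S livers lie between 1.71 and 5.20%, NS livers between 6.52 and 50.5% and C livers between 18.6 and 51.1%.

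The stocks differed for Ugt2a2 and not in a uniform way for Ugt2a3. SM2 vs BW was fitted with group in the model, with 1 SM2 animal in each group. Of the 3 UGT genes 1 was called, Ugt2a2, beside 10.8% of all genes. It was higher in SM2, with a log2 fold change of 2.53 (SE 0.65) and an edgeR adjusted p = 0.0145. The SM2 animal held the highest Ugt2a2 of its group in all 3 groups, at 79.1, 1.64 and 2.07 CPM. Without the control 10876 the log2 fold change was 1.37, with an edgeR adjusted p = 0.341. Ugt2a3 was at -0.31 (SE 0.46), with an edgeR adjusted p = 0.689, and its SM2 animal was the lowest of C and of NS but the highest of S. Without the S animal 10880 it was called lower in SM2, at -1.58 with an edgeR adjusted p = 0.0120, and without the NS animal 10865 the sign turned, at 0.36. For Ugt1a1 the log2 fold change was 0.02 (SE 0.15), with an edgeR adjusted p = 0.943. Ugt8a, which attaches galactose to ceramide and lies outside the families examined, had 16 reads in animal 10876, 2 in 10865 and at most 1 in every other animal.

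The UGTs differed in how much they varied among animals of a group. The pooled within-group SD of log2 CPM was 0.81 for Ugt2a3, larger than that of 90.7% of all genes tested, 0.20 for Ugt1a1, larger than that of 7.48%, and 1.40 for Ugt2a2, larger than that of 98.3%. The median over all genes was 0.41.

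The supply of UDP-glucuronic acid did not pass the test in any diet comparison. Of its 6 genes looked up, all tested, 0 were called by edgeR or DESeq2 in any of the 5 comparisons. In S vs C 2 of the 6 had an unadjusted edgeR p-value under 0.05, beside 3010 of all 12639 genes. The median log2 fold change of the 6 was -0.02 in S vs C, and -0.16 in the NS comparison with C, where that of all genes was 0.10 and 0.0075. Ugdh, which oxidizes UDP-glucose to UDP-glucuronic acid, was at 198.4 to 254.8 CPM in S and 184.0 to 302.6 CPM in C. Its log2 fold change in S vs C was -0.12 (SE 0.16), with an edgeR adjusted p = 0.668. Ugp2, which makes UDP-glucose, had medians of 843.2 CPM in C, 920.5 CPM in NS and 533.8 CPM in S, with overlap of S and C. Its log2 fold change in S vs C was -0.71 (SE 0.25), with an edgeR adjusted p = 0.109. Slc35d1, the transporter that brings UDP-glucuronic acid into the endoplasmic reticulum, was at -0.23 (SE 0.29) in S vs C, with an edgeR adjusted p = 0.654. In SM2 vs BW Slc35d1 was at -0.99 (SE 0.22), with an edgeR adjusted p = 0.00636, just short of the fold of 2.

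None of the tested genes for glucuronate use and breakdown or for glucuronide transport was called with diet. Of 8 genes for the use and breakdown of glucuronate 7 were tested, and 0 were called by edgeR or DESeq2 in the 4 diet comparisons. In S vs C 4 of the 7 had an unadjusted edgeR p-value under 0.05, beside 3010 of all 12639 genes. The median log2 fold change of the 7 was -0.33. Gusb, the lysosomal beta-glucuronidase that removes glucuronic acid again, was at -0.51 (SE 0.21) in S vs C, with an edgeR adjusted p = 0.146. Dcxr was at -0.67 (SE 0.21) in S vs C, with an edgeR adjusted p = 0.0736 but a fold below 2. Xylb went the other way, at 0.64 (SE 0.30) with an edgeR adjusted p = 0.201. Of 8 genes for glucuronide transport 6 were in the table and tested, and 0 were called by edgeR or DESeq2 in the diet comparisons. An unadjusted edgeR p-value under 0.05 was found for 0 of them in S vs C, beside 3010 of all 12639 genes. In S vs NS it was found for 2 of them, beside 1381 of all genes. In SM2 livers the canalicular exporter Abcc2 was called lower, at -1.22 (SE 0.29) with an edgeR adjusted p = 0.00946, and the sinusoidal exporter Abcc4 was called lower, at -2.02 (SE 0.24) with an edgeR adjusted p = 3.128e-05. Gulo, an enzyme of ascorbate synthesis from glucuronate, was called higher in SM2, at 1.74 (SE 0.39) with an edgeR adjusted p = 0.00611. Without the NS animal 10865, Abcc2 was at -0.87 and no longer called.

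Of 22 transcription factors and other regulators known to act on UGT genes that were looked up, 19 were tested. In the diet comparisons 0 of them were called by edgeR or DESeq2. In S vs C 7 of the 19 had an unadjusted edgeR p-value under 0.05, beside 3010 of all 12639 genes. The median log2 fold change of the 19 was 0.35 in S vs C, against 0.10 for all genes. The lowest was that of Nr1i3 (CAR, a xenobiotic receptor), with CPM medians of 227.5 in C, 178.9 in NS and 113.4 in S. S and C did not overlap for Nr1i3, at 92.1 to 169.0 and 187.8 to 349.8 CPM, while the range of NS spanned both, and its log2 fold change of -0.93 (SE 0.29) in S vs C had an edgeR adjusted p = 0.0729 but a fold below 2. It was called without the S animal 10880, at -1.05, or without the S female 35955, at -1.01. With males alone Nr1i3 was at -0.79 (edgeR adjusted p = 0.284), and with sex as a covariate at -0.79 (edgeR adjusted p = 0.259). Without the S male 36016 its edgeR adjusted p was 0.136. Nfe2l2 (NRF2, a regulator of antioxidant genes) differed in the other direction, at 88.0 to 155.8 CPM in S and 63.4 to 83.2 CPM in C without overlap, and its log2 fold change of 0.56 (SE 0.16) had an edgeR adjusted p = 0.0590 and a fold below 2. Nr1i2 (PXR, another xenobiotic receptor) was at -0.07 (SE 0.15), with an edgeR adjusted p = 0.821. Hnf4a, a regulator of many hepatocyte genes, was at 0.01 (SE 0.21), with an edgeR adjusted p = 0.991. In SM2 vs BW 2 of the 19 were called, a share near the 10.8% of all genes. Foxa1 was called higher, at 1.70 (SE 0.26) with an edgeR adjusted p = 0.000291, and Esr1 lower, at -1.35 (SE 0.39) with an edgeR adjusted p = 0.0263. Esr1 was no longer called without either of the SM2 animals 10865 and 10880.

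**Figure D5:**
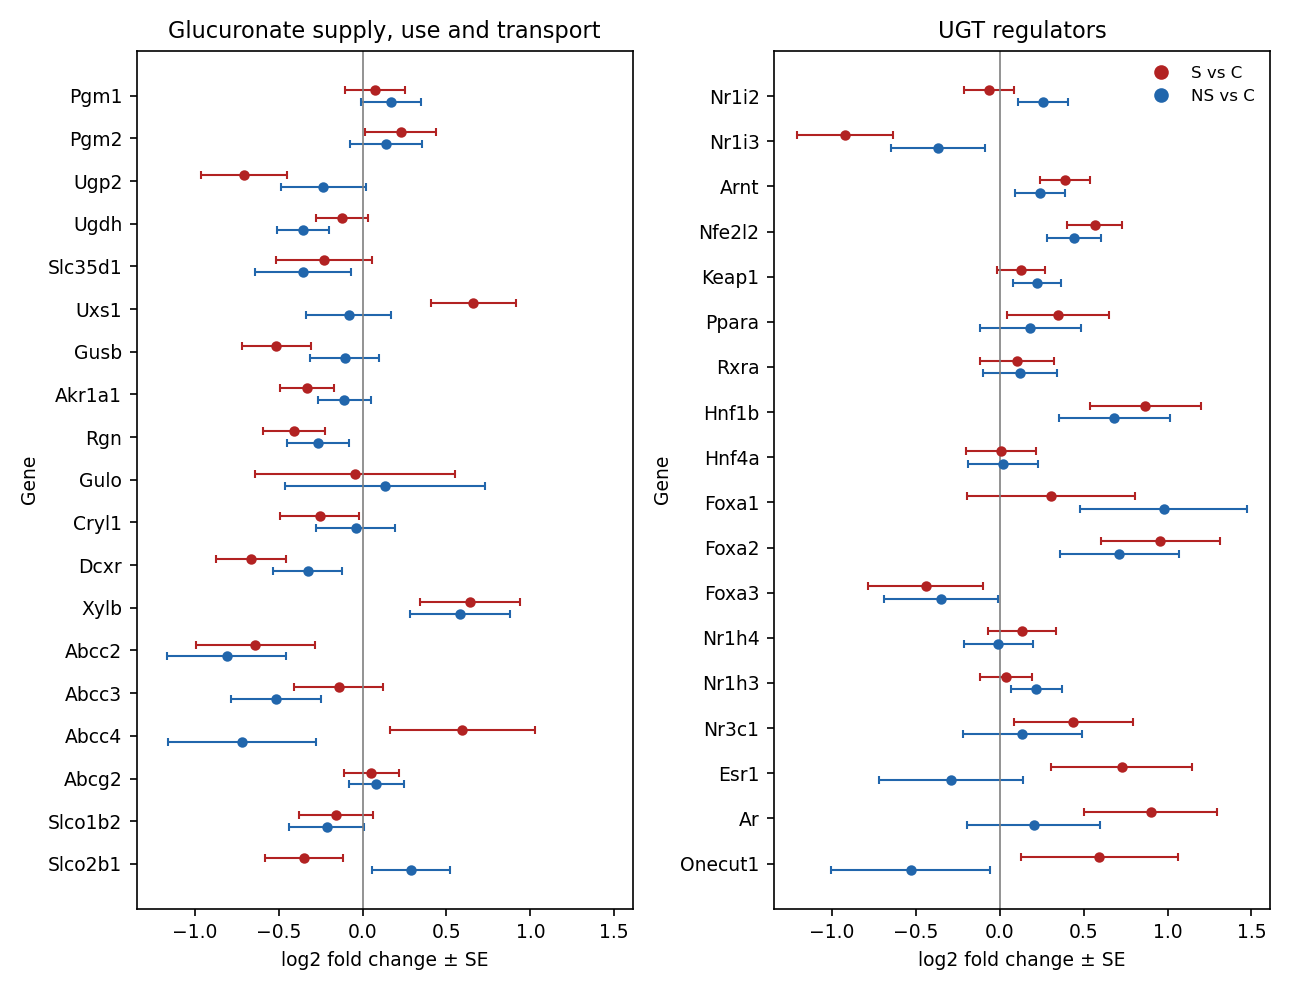
Log2 fold change ± SE in S vs C (red) and NS vs C (blue) of the tested genes for glucuronate supply, use and transport (left) and of UGT regulators (right, 18 of the 19 tested). None was called, and in S vs C Nr1i3 lies at -0.93 and Ugp2 at -0.71.

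Target genes of the same receptors were called singly, beside 4.06% of all genes in S vs C and 0.894% in HFD vs C. Members of the AhR and NRF2 lists went in both directions. Of 4 AhR targets tested, 1 was called higher in S vs C and in HFD vs C, Cyp1a1, at 1.51 (SE 0.47) with an edgeR adjusted p = 0.0747 and at 1.52 (SE 0.42) with an edgeR adjusted p = 0.0918. It stayed low, at 0.333 to 1.80 CPM in C and 1.40 to 5.00 CPM in S, and the S vs C call was lost in 7 and the HFD vs C call in 12 of the 16 fits that left out a single animal. All 4 AhR targets had an unadjusted edgeR p-value under 0.05 in S vs C, beside 3010 of all 12639 genes. Cyp1a2, the main hepatic member, was at -0.62 (SE 0.25) and Tiparp at 1.01 (SE 0.41), while Cyp1b1 had at most 7 reads in any animal. Of 2 CAR and PXR targets tested, Por, the electron donor of cytochrome P450 enzymes, was called lower in S vs C, at -1.13 (SE 0.37) with an edgeR adjusted p = 0.0836, a call lost in 8 of the 16 fits that left out a single animal. The other, Cyp2c55, was not called, with medians of 67.8 CPM in C and 29.8 CPM in S and overlapping ranges. The median log2 fold change of the 2 was -1.04 in S vs C. Of 6 NRF2 targets, 1 was called higher in S vs C, Gclc, which makes the rate-limiting subunit for glutathione synthesis, at 1.09 (SE 0.23) with an edgeR adjusted p = 0.0222. Without S animal 36016 Gclc was at 0.87, below a fold of 2. Its partner subunit Gclm was at -0.68 (SE 0.18) in S vs C, with an edgeR adjusted p = 0.0497 and a fold below 2, and the median of the 6 was -0.02, against 0.10 for all genes. Of 6 PPAR-alpha targets 0 were called by edgeR or DESeq2 in the diet comparisons, and 0 had an unadjusted edgeR p-value under 0.05. In SM2 vs BW the NRF2 targets Nqo1 (-1.88, adjusted p = 0.0318) and Srxn1 (-1.09, adjusted p = 0.0467) and the peroxisomal oxidation enzyme Ehhadh (-1.82, adjusted p = 0.00577) were called lower by edgeR. Nqo1 was no longer called without animal 10876 (-1.73), nor Srxn1 without 10865 (-0.71), 10880 (-1.25) or the S female 35990 (-0.96).

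Genes known to differ by sex in mouse liver moved with the 3 S females. Of 7 tested, A1bg, a female-biased gene, was called higher in S vs C, at 7.28 (SE 1.47) with an edgeR adjusted p = 0.0207, and in HFD vs C, at 4.95 (SE 1.34) with an edgeR adjusted p = 0.0881, a call lost in 11 of the 16 fits that left out a single animal. A1bg was 380.6, 188.7 and 128.3 CPM in the females 35955, 35982 and 35990 and at most 17.7 CPM in any male. With males alone A1bg was at 0.19 in S vs C. Cyp7b1, which is male-biased in mouse, was called lower in S vs C, at -1.74 (SE 0.47) with an edgeR adjusted p = 0.0497, and was at -1.23 with males alone and no longer called. It was also no longer called without C animal 35975 or 36007. The S male 36016 had 0 A1bg reads and 38.1 CPM of Ugt2a3, close to the 29.7 to 37.1 CPM of the females. It is a single animal, which also had the lowest total count and the lowest Ugt1a1. The part of sex in the Ugt2a3 level was not tested. Cyp17a1, an enzyme of androgen synthesis, was called lower in SM2 vs BW, at -4.31 (SE 1.61) with an edgeR adjusted p = 0.0850, and was lost in 10 of the 16 fits that left out a single animal, each SM2 animal among them. Cyp17a1 had at most 8 reads in any animal. DESeq2 did not call it (adjusted p = 0.102), nor did edgeR with sex as a covariate or with males alone.

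Likeness to Ugt2a3 was measured by Spearman's rank correlation over the 16 animals for 10325 other genes with a mean of at least 1 CPM. It is a description without a test, because the S animals hold the 5 lowest Ugt2a3 values, so any gene that is low in S ranks high. The 5 genes most like it were Plekha3, a Golgi lipid-binding protein (correlation 0.91), Mrps14, a mitochondrial ribosomal protein (correlation 0.87), Tcaim (correlation 0.84), Papss2, which makes the sulfate donor of sulfotransferases (correlation 0.82), and Ogdhl, a relative of oxoglutarate dehydrogenase (correlation 0.82). Over the 11 C and NS animals their correlation was 0.80, 0.71, 0.79, 0.57 and 0.59. Papss2 had medians of 676.8 CPM in C, 527.2 CPM in NS and 306.9 CPM in S, and Plekha3 had 30.9, 26.8 and 20.8 CPM.

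The 5 genes most opposite were the kinase Rps6ka1 (correlation -0.86), the GTPase regulator Abr (correlation -0.82), the methyl-lysine reader L3mbtl3 (correlation -0.81), Pck2, the mitochondrial form of phosphoenolpyruvate carboxykinase (correlation -0.81), and the aminopeptidase Anpep (correlation -0.81). Over C and NS their correlation was -0.59, -0.57, -0.50, -0.69 and -0.80. Anpep had medians of 3.20 CPM in C, 4.94 CPM in NS and 32.8 CPM in S. The other UGTs were not among the most like, with correlation 0.41 for Ugt1a1 and 0.39 for Ugt2a2 over all 16 animals and 0.13 and -0.15 over C and NS. The correlations depend on the scaling: with CPM by total count, those of the 5 genes most like Ugt2a3 were 0.86, 0.70, 0.71, 0.73 and 0.69 in the order above, and those of the 5 most opposite were -0.74, -0.60, -0.69, -0.72 and -0.74.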

How the data were processed

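Liver RNA of 16 deer mice was sequenced in pairs of reads. The authors used STAR 2.7.2 and the HU_Pman_2.1 assembly for alignment and featureCounts of Subread for uniquely mapped reads, and deposited raw counts per gene symbol without normalization. All columns were mapped to an animal (0 left over), and each animal was 1 replicate.

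Counts were tested with edgeR 4.0.16, run under R 4.3.3 beside limma 3.58.1 (quasi-likelihood test, TMM normalization, all 16 animals in 1 fit by group, low-count genes under 0.5 CPM in every animal left out, calls at a fold of 2 or more with a p-value, adjusted by Benjamini and Hochberg, under 0.1). SM2 vs BW added stock to the model. Rank correlations used log2(CPM + 0.5). Total counts of 4640733 to 11349971 limit genes with few reads to counting error. The fits were tested on simulated data.

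Genes named are the UGT genes, the 5 most and 5 least like Ugt2a3 by Spearman's rank correlation, called genes of the pathway lists, and Ugdh, Ugp2, Slc35d1, Gusb, Nr1i2, Nr1i3 and Hnf4a. Ahr is not analysed here, and some other genes of the lists are not reported here. Ugt8a, Hp, Apoa1, Col1a1, Nfe2l2, Gclm, Cyp2c55, Dcxr, Xylb, other AhR targets and single markers were named as context after their values were seen. The members and lists were chosen with earlier results of these data known. Alternatives were DESeq2 1.42.0, other scalings, filters and thresholds, sex or stock as covariate, BW or male animals alone, only the groups compared, and each animal left out. CPM by total count for means and correlations, and correlations with each animal left out, were added after seeing the data. Figures used Python 3.11.15 with matplotlib 3.10.9.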

Additional observations from a re-analysis of the deposited data

Results flagged for a closer look

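Of 9 checks of a group's extreme animal (3 UGT genes in 3 groups), 2 found an animal set apart by Dixon's gap. Chance does so in about 1 in 20 groups of normally distributed values, and the check used CPM without a log. Ugt2a3 in S animal 10880 was 82.35 CPM, and the gap to the next S animal was 0.841 of the range of the group. Ugt2a2 in C animal 10876 was 79.12 CPM, with a gap of 0.705 of the range. Ugt2a2 in C was skewed, with a mean of 18.9 and a median of 4.25 CPM, so the rate of 1 in 20 does not hold for it. Animals 10880 and 10876 are both SM2.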

How the results depend on the processing

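The log2 fold changes of Ugt2a3 in the 4 diet comparisons and of Ugt1a1 in the same comparisons kept their direction under every setting run. Without a single animal, Ugt2a3 lay between -4.20 and -3.74 in S vs C and between -3.81 and -3.27 in S vs NS. Of the 3 UGT genes, 1 was called in S vs C with sex as a covariate or males alone, 1 in NS vs C by DESeq2 or with stock as a covariate, and 0 in S vs NS with only the groups compared. Without a single animal these counts were 2 to 2 in S vs C, 0 to 0 in NS vs C, 1 to 1 in S vs NS, 2 to 2 in HFD vs C and 0 (without 10876) to 2 (without 10880) in SM2 vs BW. The counts in S vs C, S vs NS and HFD vs C include Ugt2a3, which was chosen from S vs NS, so nothing is read from their steadiness. The sign turned, for values not called in the reported fit, for Ugt2a2 in S vs NS (0.26 with sex as a covariate or males alone, -0.77 to 0.036 without a single animal), for Hnf4a in S vs C (-0.20 with sex as a covariate or males alone, -0.012 with stock, -0.13 to 0.12 without a single animal), for Nr1i2 in S vs C (-0.14 to 0.012) and, in SM2 vs BW, for Ugt2a3 (-1.58, called, to 0.36) and Ugt1a1 (-0.018 to 0.10). The cause was not tested.

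Genes called among all tested were 513 in S vs C, against 1359 with no fold limit, 209 at an adjusted p under 0.05 and 192 (without 36007) to 573 (without 10880) without a single animal. In NS vs C there were 9, against 53 by DESeq2, 29 with stock as a covariate, 5 at 0.05 and 2 (without 35963) to 29 (without 35930). In S vs NS there was 1, against 71 by DESeq2, 191 with sex and 17 with stock as a covariate, 18 in BW animals alone, 157 in males alone, 0 with only the groups compared and 1 to 15 (without 10880). In HFD vs C there were 113, against 240 by DESeq2, 228 with sex and 231 with stock as a covariate, 338 with no fold limit, 42 at 0.05 and 36 (without 36007) to 234 (without 35930). In SM2 vs BW there were 1370, against 2752 with no fold limit and 868 (without 10865) to 1448 (without 10876).

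No paired analysis was possible because replicate numbers were given in accession order and pair no animals. BW animals alone give no SM2 vs BW value, and Ugt8a and Cyp17a1 were not tested under the filter of 0.5 CPM in 5 animals. At 1 to 17 reads in S, the depth limits Ugt2a2 on HFD.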
